A study of Mus musculus with 4 samples.

Results

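Mouse long-term haematopoietic stem cells (HSCs) taken from marrow grafts given 0.1 Gy of γ-rays were compared with those from grafts given 0.02 Gy, a lower dose, by gene expression array. The comparison rests on 2 of the 4 arrays in the study, 1 for each of these doses, and was chosen by the dose label alone. Among 23185 named genes, 11593 reached 4.06, the median of gene means, in their own mean log2 intensity over the 4 arrays, and are called kept genes here. A difference is the log2 value at 0.1 Gy minus that at 0.02 Gy, so a value of 1 is a 2-fold higher intensity at 0.1 Gy. The other arrays, 0 Gy and 0.5 Gy, do not enter the difference and are given beside it. With 1 array a side there was no spread within a dose and no test, so each difference describes this pair of arrays and not the doses.

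In all 4 groups the irradiated or unirradiated cells were marrow cells negative for lineage markers and positive for c-Kit and Sca. These cells were grafted into lethally irradiated mice, and after 6 months the long-term HSCs were isolated as cells of the same phenotype that also lacked Flk2 and CD48 and carried CD150. The groups are 0 Gy (no irradiation), 0.02 Gy, 0.1 Gy and 0.5 Gy, and the dose was given to the cells before grafting. The sorting gate does not name a donor marker. For strain, age, sex and any pooling of mice, nothing is given in the sources used here.

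Long-term HSCs are the rare marrow cells that can rebuild all blood lineages, and most of them are not dividing at a given time. When they leave this resting state they switch on genes of DNA replication and mitosis, and their progeny take up the programmes of granulocytes, red cells, platelets or lymphocytes. With age, mouse HSCs accumulate in number and express more of a known set of genes that includes those for clusterin, P-selectin and von Willebrand factor.

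The genes behind the sort were compared before the rest. Kit, which encodes the c-Kit receptor, had log2 intensities of 10.57 at 0.02 Gy and 10.40 at 0.1 Gy. Slamf1, which encodes CD150, was at 8.65 and 7.16, and Procr, the protein C receptor enriched on HSCs, was at 8.17 and 7.09. Both were lower at 0.1 Gy, with differences of -1.49 and -1.09. Flt3, which encodes Flk2 and is excluded by the gate, was at 4.76 and 5.44, above the filter level on both arrays. Cd48, also excluded, had 3.08 and 4.11 and did not pass the filter at its mean. Cd34, which HSCs gain as they become multipotent progenitors, stood at 7.79 at 0.02 Gy and 9.77 at 0.1 Gy, a 3.94-fold higher value. Its values at 0 Gy and 0.5 Gy were 8.68 and 9.70, so the 0.02 Gy array was the lowest of the 4.

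Median intensities of the 4 arrays over named genes lay between 4.02 and 4.09, and the median difference over kept genes was 0.00, with quartiles of -0.17 and 0.17. Past 2-fold, 176 kept genes (1.52%) had the higher value at 0.1 Gy and 375 (3.23%) the lower one. At 1.5-fold the shares were 5.9% higher and 8.15% lower. With no filter, the shares of the 23185 named genes were 1.01% higher and 2.21% lower at 2-fold, and 4.12% and 5.5% at 1.5-fold. Immunoglobulin genes made up 84 of the 375 lower genes and 3 of the 176 higher ones. Without them, 173 genes were higher and 291 lower at 2-fold, or 1.51% and 2.53% of 11493. In 1915 kept genes, 16.5%, the 2 arrays held exactly the same deposited value. Around the filter level, 308 genes lay up to 0.1 above it, of which 11 were past 2-fold, and 326 lay up to 0.1 below it, of which 16 were.

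**Figure D1:**
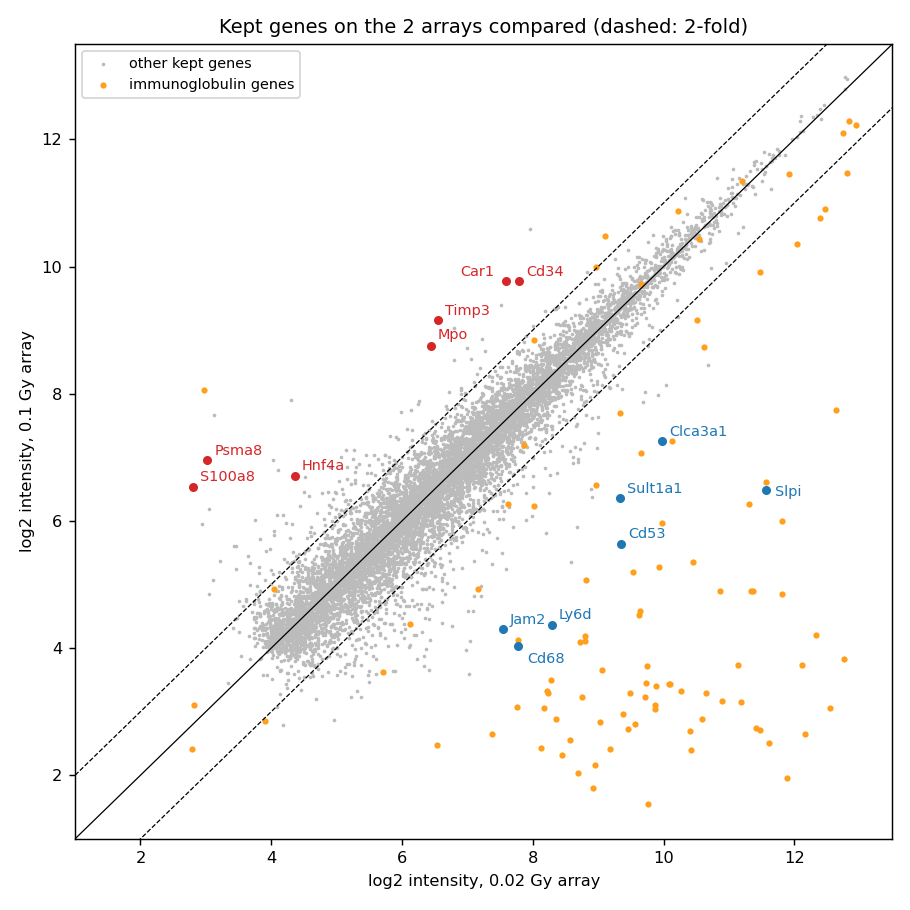
Each point is a kept gene, with its log2 intensity on the 0.02 Gy array on the horizontal axis and on the 0.1 Gy array on the vertical axis; the solid line marks equality and the dashed lines 2-fold. Immunoglobulin genes (orange) lie mostly far below the line, Slpi is the lowest labelled gene relative to it at -5.08, and Psma8 and S100a8 lie farthest above it among labelled genes at 3.93 and 3.73.

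The 0 Gy and 0.5 Gy arrays were used to place such a gap, but each is 1 array and they differed from each other in some genes. Among the 291 lower genes that were not immunoglobulin genes, the 0.02 Gy array was the farther of the pair from the mean of the 0 and 0.5 Gy arrays in 177 and the 0.1 Gy array in 114. The median departure from that mean was 0.83 at 0.02 Gy and -0.54 at 0.1 Gy. For the 173 higher genes the split was even, with 87 and 86 genes and median departures of -0.66 and 0.70. Both the 0 and 0.5 Gy arrays lay between the compared arrays in 160 of the 291 and in 90 of the 173. In 71 of the 291 the 0.02 Gy array stood at least 2-fold from each of the other 3 arrays, and in 41 the 0.1 Gy array did. Over all kept genes, immunoglobulin genes included, 140 (1.21%) were 2-fold above the other 3 arrays at 0.02 Gy and 27 (0.233%) 2-fold below them. At 0.1 Gy these counts were 38 (0.328%) and 46 (0.397%). Without immunoglobulin genes they were 71 and 27 at 0.02 Gy, and 35 and 41 at 0.1 Gy. Each array stood apart in some genes. In either direction, the totals over all kept genes were 92, 167, 84 and 109 at 0, 0.02, 0.1 and 0.5 Gy. Without immunoglobulin genes these totals lay closer together, at 84, 98, 76 and 86 in the same order.

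The gene with the lowest value at 0.1 Gy relative to 0.02 Gy, immunoglobulin genes and unnamed or predicted genes aside, was Slpi, which encodes a secreted inhibitor of leukocyte proteases. Its log2 intensities were 9.49, 11.56, 6.48 and 7.03 at 0, 0.02, 0.1 and 0.5 Gy, so it was 33.9-fold lower at 0.1 Gy than at 0.02 Gy. The 0.02 Gy array was highest and the 0.1 Gy array lowest of the 4. Ly6d, a surface protein of lymphoid progenitors with B cell potential, had 6.38, 8.29, 4.37 and 6.03 in the same order, a 15.2-fold lower value. The macrophage lysosomal protein gene Cd68 had 6.10, 7.78, 4.02 and 6.18, and the leukocyte tetraspanin gene Cd53 had 7.12, 9.35, 5.64 and 7.03. In Ly6d, Cd68 and Cd53 the 0 and 0.5 Gy arrays lay between those compared and close to each other. The small heat shock protein gene Cryab was at -3.43, the adhesion molecule gene Jam2 at -3.24 and Prg2, the eosinophil major basic protein gene, at -3.22. Next came Tfb2m, a mitochondrial transcription factor gene, at -3.02, and Sult1a1, a sulfotransferase gene, at -2.98. Pou2af1, a B cell transcriptional coactivator gene, was at -2.92, Tgfbi at -2.77, the photoreceptor calcium sensor gene Rcvrn at -2.76, Clca3a1 at -2.72, Gda at -2.53 and Clip3 at -2.50. Of these 15, Cd68, Cryab, Tfb2m and Rcvrn had values under the filter level at 0.1 Gy, where the size of a difference is uncertain.

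The highest differences belonged to Psma8, a testis-enriched proteasome subunit gene, and S100a8, a calcium-binding alarmin gene of neutrophils. Psma8 had 5.78, 3.02, 6.95 and 7.99 at 0, 0.02, 0.1 and 0.5 Gy, so the 0.02 Gy array alone was low and under the filter level. S100a8 had 3.89, 2.81, 6.54 and 4.88, with the 0.1 Gy array alone high. Smim40 followed, 7.99-fold higher, and the sodium pump subunit gene Atp1b2 at 2.93, both with 0.02 Gy values under the filter level. Timp3, an inhibitor of metalloproteinases, had 9.30, 6.55, 9.16 and 8.10, a bright gene in which only the 0.02 Gy array was low, and was 6.11-fold higher at 0.1 Gy. Hnf4a, a nuclear receptor gene of liver and gut, had 4.20, 4.36, 6.71 and 4.32, with the 0.1 Gy array alone high. Then came Mpo at 2.31, Akr1c12 at 2.26, Car1 at 2.18, the nuclear lamina gene Lmnb2 at 2.17, H3f3a at 2.17 and the coagulation inhibitor gene Tfpi at 2.14. Elane, 3.99-fold higher, Cd34 at 1.98 and the TWEAK receptor gene Tnfrsf12a at 1.94 complete the 15. Of these 15, Psma8, S100a8, Smim40, Atp1b2, Akr1c12, H3f3a and Tfpi had values under the filter level at 0.02 Gy. The size of their differences is uncertain, and H3f3a was above that level at 0.1 Gy alone. H3f3a encodes histone H3.3 and has near-identical copies in the genome, so its signal cannot be assigned to 1 locus with certainty.

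Most genes of a long-term HSC signature list were lower at 0.1 Gy than at 0.02 Gy. This list, like the others here, was drawn up with earlier results of these data known, and was not tested. Of 36 listed genes of the long-term HSC signature, 35 were measured and 34 kept, with a median difference of -0.61. At 1.5-fold, 17 of the 34 were lower and 0 higher, where 8.15% of all kept genes were lower. Over the 35 measured members the median was -0.57. Sult1a1 had log2 intensities of 8.77, 9.33, 6.36 and 7.93 at 0, 0.02, 0.1 and 0.5 Gy. Gda, guanine deaminase, had 8.13, 8.90, 6.37 and 7.02. For both, the 0.02 Gy array was highest and the 0.1 Gy array lowest. Fgd5, whose expression within marrow is nearly restricted to HSCs, had 5.40, 6.24, 4.69 and 5.01, and Prdm16, a transcription factor needed for HSC maintenance, had 6.28, 6.47, 4.94 and 6.28. In Prdm16 the gap lay on the 0.1 Gy side, since the other 3 arrays were close together. Hoxb5 was at -0.92, the leukaemia partner gene Mllt3 at -1.01, the endothelial adhesion gene Esam at -1.06 and Cdkn1c, which encodes the cell cycle inhibitor p57, at -0.98.

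The receptor genes Rarb, for retinoic acid, and Neo1, for netrins, had differences of -1.89 and -1.77. Rarb had 6.91, 6.35, 4.46 and 4.31 and Neo1 7.47, 6.38, 4.61 and 4.35 in order of dose, so in both the 0 and 0.02 Gy arrays were high and the 0.1 and 0.5 Gy arrays low. Mycn had the same arrangement, with 7.83, 7.62, 6.49 and 6.49. Transcription factor genes of the list were spread widely. Beside Prdm16 and Hoxb5, Mecom was at -0.53 and Hlf at -0.36, while Meis1 had a difference of -0.04 and Gata2 exactly the same value on both arrays.

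The list of genes that accumulate in HSCs of old mice had the lowest median of the lists examined, -1.32 over 27 kept of 32 measured genes. At 1.5-fold, 19 of the 27 were lower and 0 higher, beside 8.15% and 5.9% of kept genes. Over the 32 measured the median was -1.20. Jam2 had 6.62, 7.54, 4.30 and 4.94 at 0, 0.02, 0.1 and 0.5 Gy, a 9.45-fold lower value at 0.1 Gy than at 0.02 Gy. Clca3a1, a chloride channel regulator gene, had 8.45, 9.97, 7.26 and 7.70, and Clu, clusterin, had 8.54, 8.90, 6.50 and 7.09. Vwf, von Willebrand factor, had 8.58, 8.98, 7.14 and 7.28, and Selp, P-selectin, had 8.12, 8.69, 6.97 and 6.99. In Clu, Vwf and Selp the 0 and 0.02 Gy arrays were the upper pair the 0.1 and 0.5 Gy arrays the lower pair. Alcam, an adhesion molecule gene, had 6.47, 7.99, 6.08 and 6.47, and the stress-response gene Nupr1 had 8.59, 9.91, 7.97 and 8.21. In Alcam and Nupr1 it was the 0.02 Gy array that stood high. The prostaglandin receptor gene Ptger4 was at -1.56 and the oxysterol receptor gene Gpr183 at -1.32.

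The HSC signature and old HSC lists share 5 kept genes. Without these, the median was -0.45 for the 29 other HSC signature genes, of which 12 were lower, and -0.86 for the 22 other old HSC genes, of which 14 were lower. The 0.02 Gy array alone was the highest of the 4 in 19 of the 34 HSC signature genes and 19 of the 27 old HSC genes, beside 21.3% of all kept genes. The 0.1 Gy array alone was the lowest in 22 of the 34 and 20 of the 27, beside 21.0% of kept genes. In bulk samples, fewer cells of a type and less RNA per cell cannot be told apart.

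Genes of cell division were higher at 0.1 Gy. At 1.5-fold, 19 of 36 kept mitosis and spindle genes were higher and 0 lower, where 5.9% of kept genes were higher, and the median difference was 0.64. Cdk1, the kinase that drives entry into mitosis, had 8.90, 8.18, 9.31 and 9.09 at 0, 0.02, 0.1 and 0.5 Gy. Aspm, a spindle pole protein gene, had 6.67, 5.18, 6.26 and 6.06, and Plk1, a mitotic kinase gene, had 8.24, 7.12, 8.12 and 8.09. The 0.02 Gy array was the lowest of the 4 in each of these, and the other 3 arrays lay closer to each other than to it. Prc1, a midzone microtubule bundler gene, was at 0.93, the checkpoint kinase gene Bub1 at 0.93, Racgap1 at 0.91 and Aurka, aurora kinase A, at 0.83. The topoisomerase gene Top2a was at 0.67, while the proliferation marker Mki67 was at 0.29. Over the list, 33 of 36 genes had a positive difference, and the 0.1 Gy array alone was the highest of the 4 in 17, beside 19.8% of kept genes.

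DNA replication genes had a median of 0.38 over 42 kept genes. Of these, 11 were at least 1.5-fold higher and 0 lower, beside 5.9% and 8.15% of all kept genes. Mcm10, a replication initiation factor gene, had 6.15, 5.16, 6.84 and 6.15 at 0, 0.02, 0.1 and 0.5 Gy and was 3.20-fold higher at 0.1 Gy than at 0.02 Gy. Pola2, a subunit gene of the primase complex, had 7.61, 7.09, 8.19 and 7.37, and the helicase subunit gene Mcm5 had 7.95, 7.45, 8.30 and 8.19. The flap nuclease gene Fen1 was at 0.85, the polymerase epsilon gene Pole at 0.75 and Pcna, the polymerase clamp, at 0.22. The 0.02 Gy array alone was the lowest of the 4 in 32 of the 36 mitosis genes and 35 of the 42 replication genes, beside 22.6% of kept genes. Relative to the mean of the 0 and 0.5 Gy arrays, the mitosis list had a median of -0.56 at 0.02 Gy and 0.02 at 0.1 Gy, and the replication list -0.33 and 0.00. The gap in these lists therefore lay on the side of the 0.02 Gy array. Of 22 double-strand break repair genes, Chek1 at 1.52, Brca1 at 1.42 and Nhej1 at 0.75 were at least 1.5-fold higher. None of the 22 was lower, and the median was 0.04, beside the same shares of all kept genes.

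The sequences before the start sites of the 3 mitosis genes with the largest differences and a single listed start are shown because nearly all genes of this list had positive differences. They are the 250 bases upstream of the start in RefSeq's GRCm38.p6 annotation, with the transcribed strand given. Capitals mark matches, on either strand, to TTTGAA, the core of the cell cycle genes homology region that the DREAM complex binds, and to CCAAT, the box that NF-Y binds. No matches overlap in the stretches shown.
Cdk1 (chr10:69352913-69353162, minus strand): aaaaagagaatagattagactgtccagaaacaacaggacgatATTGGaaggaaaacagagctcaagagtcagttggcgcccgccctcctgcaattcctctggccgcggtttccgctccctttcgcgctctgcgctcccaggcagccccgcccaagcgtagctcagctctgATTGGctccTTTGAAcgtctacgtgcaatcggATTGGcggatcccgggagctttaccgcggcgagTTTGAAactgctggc
Aspm (chr1:139454523-139454772, plus strand): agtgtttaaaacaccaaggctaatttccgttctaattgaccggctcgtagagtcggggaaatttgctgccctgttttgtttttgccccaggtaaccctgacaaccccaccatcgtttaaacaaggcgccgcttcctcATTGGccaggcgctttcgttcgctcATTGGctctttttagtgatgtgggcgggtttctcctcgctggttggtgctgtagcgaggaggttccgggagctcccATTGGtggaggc
Plk1 (chr7:122159185-122159434, plus strand): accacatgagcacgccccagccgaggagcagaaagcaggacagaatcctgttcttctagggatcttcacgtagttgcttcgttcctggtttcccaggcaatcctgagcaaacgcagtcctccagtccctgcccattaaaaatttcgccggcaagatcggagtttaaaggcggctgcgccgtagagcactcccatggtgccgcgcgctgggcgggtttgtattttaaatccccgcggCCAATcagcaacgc
Cdk1 held 2 matches to TTTGAA and 3 to CCAAT, Aspm 0 and 3, and Plk1 0 and 1. Promoters were found for 30 of the 36 kept mitosis genes, taking the most upstream start where several are listed. Of the 30, 21 held CCAAT and 8 held TTTGAA in this window, beside 36.8% and 10.4% of the 9136 kept genes with a promoter. Among the 16 that were at least 1.5-fold higher at 0.1 Gy, 13 held CCAAT and 4 held TTTGAA. A match is a string of letters and not a shown binding site.

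Granulocyte and red cell genes were mixed, with several members higher at 0.1 Gy. Of 22 measured neutrophil and granulocyte progenitor genes, 10 were kept, with a median of 1.15. At 1.5-fold 6 of the 10 were higher and 1 lower, beside 5.9% and 8.15% of kept genes. Over all 22 measured the median was 0.26, with 7 higher and 1 lower, and 10 members were under the filter level on all 4 arrays. The filter favoured members high at 0.1 Gy, such as S100a8 and Ctsg, which were under its level at 0 and 0.02 Gy. The median was 0.68 with the filter set on the 0 and 0.5 Gy arrays alone and 0.32 with both compared arrays at or above the level. Mpo, myeloperoxidase, had 4.78, 6.44, 8.75 and 7.07 at 0, 0.02, 0.1 and 0.5 Gy, highest at 0.1 Gy and lowest at 0 Gy. Elane, neutrophil elastase, had 3.54, 4.09, 6.09 and 6.28, and Ctsg, cathepsin G, had 3.48, 3.82, 5.71 and 4.12. S100a9, the partner of S100a8, had 5.05, 6.26, 7.89 and 4.79. The member on the other side was Prtn3, proteinase 3, with 7.60, 8.81, 8.04 and 8.21, a difference of -0.78. In Mpo, Ctsg, S100a8 and S100a9 the 0.1 Gy array was the highest of the 4, and in Prtn3 the 0.02 Gy array was. Among the members that did not pass the filter, Camp, the cathelicidin gene of mature neutrophils, had 2.61 at 0 Gy, 2.80 at 0.5 Gy and 4.78 at 0.1 Gy, and Ngp and Ltf, of neutrophil granules, stayed under the filter level on all 4 arrays.

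Of 20 measured erythroid genes 18 were kept, with 7 at least 1.5-fold higher, 3 lower and a median of 0.31, beside 5.9% and 8.15% of kept genes. Car1, a red cell carbonic anhydrase gene, had 8.42, 7.59, 9.77 and 10.34, and Klf1, the erythroid transcription factor gene, had 5.46, 4.90, 6.84 and 6.64 at 0, 0.02, 0.1 and 0.5 Gy. Rhag, of the Rh blood group complex, had 4.79, 3.98, 5.56 and 5.31. In these genes the 0.02 Gy array was lowest and the 0.1 and 0.5 Gy arrays were the upper pair. Ermap was at 1.24, Rhd at 0.85, Blvrb at 0.79 and Gata1 at 0.77, while Tspan33 with 4.88 at 0.02 Gy and 3.88 at 0.1 Gy, the metallothionein gene Mt2 at -0.74 and the globin gene Hbb-b1 at -0.72 were lower. The anion exchanger gene Slc4a1 at -0.43 and the erythropoietin receptor gene Epor at -0.28 also had negative differences. The multipotent progenitor list kept 9 of 14 measured members, with a median of 0.25. Past 1.5-fold, the 0.1 Gy array had the higher value in 4 of the 9, including Cd34 and the early activation marker Cd69 at 1.94. It had the lower value in 2, Cd52 at -0.94 and Notch1 at -0.76. The shares over all kept genes were again 5.9% and 8.15%. With all 14 members counted, 5 lay on the higher side and 2 on the lower, and the median was 0.26. On all 4 arrays, 4 of the 14 stayed under the filter level.

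**Figure D2:**
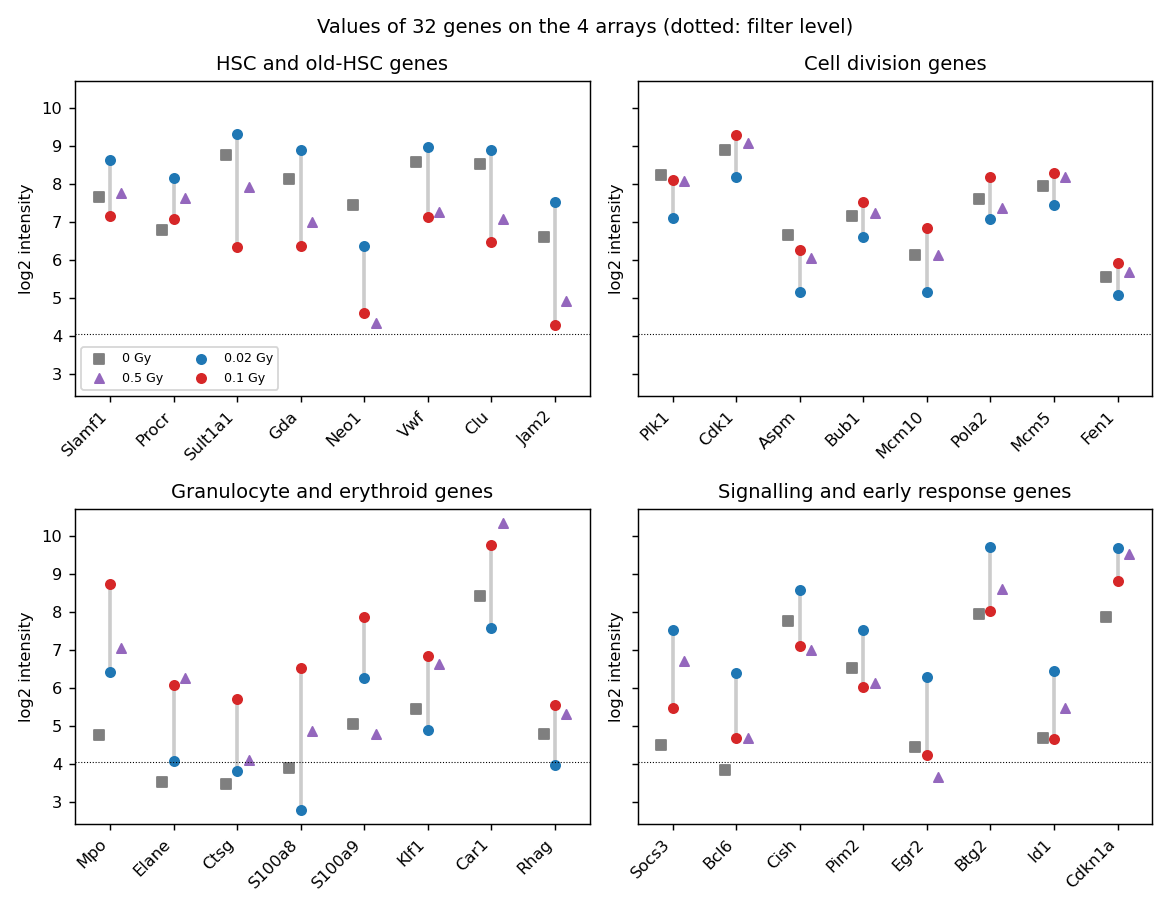
Log2 intensity (vertical axis) of 32 genes on the 4 arrays, in 4 panels; circles joined by a grey bar are the 0.02 Gy (blue) and 0.1 Gy (red) arrays, squares 0 Gy, triangles 0.5 Gy, and the dotted line is the filter level. The HSC and old-HSC genes plotted are lower on the red than the blue circle, such as Sult1a1 at 6.36 against 9.33. The cell division and lineage genes plotted are higher, such as Mcm10 at 6.84 against 5.16. Genes were picked with their values known. Members of the same lists that go the other way, such as Prtn3, Hbb-b1 and Id3, are not plotted.

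Megakaryocyte and platelet genes, which HSCs share in part, were divided. Of 18 kept genes 3 were at least 1.5-fold higher, Plek at 1.09, the thrombin receptor gene F2r at 0.75 and F2rl2 at 0.64, and 3 were lower, Vwf, Selp and Mmrn1 at -0.68. Their median was -0.23, and over all kept genes 5.9% were higher and 8.15% lower at this fold. The monocyte, macrophage and dendritic list kept 4 of 21 measured genes, 16 being under the filter level on all 4 arrays. Its defining receptor genes Csf1r and Adgre1 held exactly the same deposited values on every array, 3.11 and 3.22, under the filter level. Such fixed low values cannot show whether these genes went with Cd68. Of 16 measured eosinophil, basophil and mast cell genes, 3 were kept and 12 were under the filter level on all arrays. Prg2 had 6.83, 8.58, 5.36 and 3.73 at 0, 0.02, 0.1 and 0.5 Gy, and the mast cell protease gene Cpa3 was at 0.79.

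Several genes of cytokine signalling through STAT proteins were lower at 0.1 Gy. Of 13 kept SOCS and STAT genes, the median was -0.58, and 6 were lower by at least 1.5-fold and 0 higher, beside 8.15% and 5.9% of kept genes. Socs3, a feedback inhibitor induced by STAT3, had 4.50, 7.53, 5.49 and 6.72 at 0, 0.02, 0.1 and 0.5 Gy. The repressor gene Bcl6 had 3.85, 6.41, 4.69 and 4.69, and Cish, a feedback inhibitor induced by STAT5, had 7.77, 8.57, 7.10 and 7.02. In all 3 the 0.02 Gy array was the highest of the 4. Pim2, a survival kinase gene, was at -1.52, Stat3 itself at -0.82 and Il6st, which encodes the shared receptor chain gp130, at -1.23 with values of 7.66 at 0.02 Gy and 6.43 at 0.1 Gy. Relative to the mean of the 0 and 0.5 Gy arrays, the list had a median of 0.61 at 0.02 Gy and -0.15 at 0.1 Gy.

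The inhibitors of differentiation did not go one way. Id1 had 4.68, 6.46, 4.67 and 5.47 and Id2 5.82, 5.76, 4.72 and 5.01 at 0, 0.02, 0.1 and 0.5 Gy, both lower at 0.1 Gy than at 0.02 Gy. Id3 had 4.48, 5.74, 7.04 and 6.74 and was 2.46-fold higher at 0.1 Gy. In the list of these and TGF-beta pathway genes, 6 of 19 kept were at least 1.5-fold lower, 1 was higher and the median was -0.35. The shares over all kept genes were 8.15% lower and 5.9% higher. The extracellular matrix gene Tgfbi had 6.24, 8.67, 5.90 and 6.15, so only the 0.02 Gy array was high, and the receptor genes Tgfbr1 and Tgfbr2 were at -0.74 and -0.75.

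Of 31 kept immediate early genes, which are switched on within minutes of a stimulus, 10 were at least 1.5-fold lower at 0.1 Gy and 1, Cd69, was higher. The shares over all kept genes were 8.15% and 5.9%. The list's median of -0.09 became 0.02 under quantile normalization, so no direction is given for the list as a whole. Egr2 had 4.46, 6.30, 4.25 and 3.68 and Btg2, an antiproliferative gene, 7.96, 9.72, 8.03 and 8.61 at 0, 0.02, 0.1 and 0.5 Gy. Egr3 was at -1.19, Fosl2 at -1.16, the phosphatase gene Dusp5 at -1.12, Ier3 at -1.01, Junb at -0.94, Klf4 at -0.93, Nr4a1 at -0.75 and Nr4a2 at -0.72. Fos was at -0.16, Dusp1 had equal values and Fosb was at 0.55. Other members of the EGR and KLF families were not past 1.5-fold, with Egr1 at -0.43, Klf2 at 0.47 and Klf6 at 0.38.

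The upstream sequences of the 3 lower immediate early genes with the largest differences and a single listed start are given on the same terms. Capitals mark the frame of the serum response factor site, CC and GG set apart by any 6 bases, and TGACGT, the core of the cyclic AMP response element, on either strand.
Btg2 (chr1:134079156-134079405, minus strand): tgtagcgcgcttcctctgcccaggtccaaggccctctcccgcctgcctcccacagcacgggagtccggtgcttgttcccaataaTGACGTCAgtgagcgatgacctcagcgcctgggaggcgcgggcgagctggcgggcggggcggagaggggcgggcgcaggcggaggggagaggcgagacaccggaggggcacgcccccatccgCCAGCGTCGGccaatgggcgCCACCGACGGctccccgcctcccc
Fosl2 (chr5:32136222-32136471, plus strand): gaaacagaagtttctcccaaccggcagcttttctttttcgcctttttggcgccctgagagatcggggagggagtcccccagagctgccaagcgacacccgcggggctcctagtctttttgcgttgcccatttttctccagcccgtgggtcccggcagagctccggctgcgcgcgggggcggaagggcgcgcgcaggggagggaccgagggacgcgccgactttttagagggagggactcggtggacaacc
Dusp5 (chr19:53528895-53529144, plus strand): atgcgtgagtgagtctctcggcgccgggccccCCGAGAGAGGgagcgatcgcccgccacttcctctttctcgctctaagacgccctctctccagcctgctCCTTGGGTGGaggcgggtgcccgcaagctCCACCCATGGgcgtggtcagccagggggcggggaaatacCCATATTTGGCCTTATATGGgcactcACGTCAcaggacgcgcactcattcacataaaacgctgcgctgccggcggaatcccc
The frame matched 2 times in Btg2, 0 times in Fosl2 and 5 times in Dusp5, and TGACGT matched 2, 0 and 1 times. The pair of TGACGT matches in Btg2 overlap, since they read the same element on opposite strands. The frame was held by 21 of 24 kept immediate early genes with a promoter, but also by 81.1% of all kept genes with one, while TGACGT was held by 7 of 24 beside 10.4%. Of the 9 lower members with a promoter, 8 held the frame and 2 held TGACGT.

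Among 19 kept genes of NF-kB and inflammation the median was -0.25. At 1.5-fold 6 were lower and 3 higher, beside 8.15% and 5.9% of kept genes. Bcl3, a nuclear IkB protein gene, had 6.92, 8.69, 6.92 and 6.13, while Tnf was at 1.38, with values of 4.88 at 0.02 Gy and 6.26 at 0.1 Gy. Of 21 kept p53 target genes, 6 were lower and 2 higher, beside the same shares, 4 were equal and the median was 0.00. Trp53inp1 had 6.37, 6.78, 5.24 and 5.56 and the repair gene Ddb2 6.52, 6.84, 5.60 and 6.52, both lowest at 0.1 Gy. Cdkn1a, which encodes p21, had 7.87, 9.68, 8.82 and 9.52, so both arrays compared lay above 0 Gy and the difference was -0.86. Plk2 was 1.99-fold lower and Plk3 at -0.77, and Rrm2b at 0.70 and Psrc1 at 0.64 were higher. The death effector genes Bbc3 and Pmaip1 were under the filter level on all 4 arrays.

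Immunoglobulin genes, products of B and plasma cells rather than of stem cells, had a lower median than any of the 34 lists. It was -5.05 over the 100 kept, of which 84 were lower at 0.1 Gy by at least 2-fold and 3 higher. The medians of the 100 were 6.30, 9.74, 3.79 and 3.78 at 0, 0.02, 0.1 and 0.5 Gy, so the filter favoured genes high at 0.02 Gy. Over all 199 measured the median was -2.60, and 124 were lower and 4 higher, beside 2.21% and 1.01% of named genes. The IgG1 constant gene Ighg1 had 11.04, 12.55, 3.06 and 4.12 at 0, 0.02, 0.1 and 0.5 Gy, high on one pair of arrays and under or near the filter level on the other. Ighm, the IgM constant gene, had 10.93, 11.20, 11.35 and 7.21, and the light chain gene Igkc had 12.66, 12.83, 12.29 and 11.70. Of the 89 kept variable segments 77 were at least 2-fold lower, whereas Ighm differed by 0.15.

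Plasma cell genes other than immunoglobulins were on the same side. At 1.5-fold, 7 of 11 kept genes were lower and 0 higher, and over all 14 measured genes 9 were lower, with medians of -0.92 and -0.94. The shares at this fold were 8.15% lower and 5.9% higher over all kept genes, and 5.5% and 4.12% over all named genes. Their mean log2 intensity over the 14 was 5.43, 6.27, 5.24 and 4.97 at 0, 0.02, 0.1 and 0.5 Gy. The antibody joining chain gene Jchain had 9.75, 10.69, 8.46 and 7.32, the secretory factor gene Mzb1 had 6.23, 7.60, 5.24 and 3.78, and the regulator Prdm1 had 4.46, 5.45, 4.06 and 4.46. The B cell list was mostly dark, with 9 of 14 measured genes under the filter level on all arrays, Ms4a1 (CD20) between 2.23 and 2.32, and Pax5 at 4.26 on each array. Of the 4 kept, 2 were lower and 1 higher by at least 1.5-fold, beside the same shares of kept genes, and 1 was equal. Cd79a had 3.80, 6.61, 4.40 and 3.30 and Cd79b 7.58, 8.62, 7.01 and 6.79, while Cd37 was at 0.62. The part of plasma cell RNA in the other differences between these arrays was not tested. Xbp1, which both the plasma cell and unfolded protein response lists hold, was at -0.92.

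Most class II antigen presentation genes had negative differences, whereas interferon genes differed in single members. Class II genes had a median of -0.20 over 12 kept, of which 4 were lower by at least 1.5-fold and 0 higher. Of the 12, 10 had a negative difference, 1 a positive one and 1 was equal. For each list in this paragraph, the shares over all kept genes were 8.15% lower and 5.9% higher. The invariant chain gene Cd74 had 9.94, 9.68, 7.87 and 9.23 and the protease gene Ctss 5.95, 7.22, 5.55 and 5.40 at 0, 0.02, 0.1 and 0.5 Gy. In Cd74 only the 0.1 Gy array was low, whereas in Ctss only the 0.02 Gy array was high. Of 31 interferon-stimulated genes 5 were lower, led by Iigp1 at -1.29, and 3 higher, led by Ifi27l2a at 1.61, and the median of -0.03 became 0.01 under quantile normalization. Among 7 kept GIMAP GTPase genes of lymphocyte survival, Gimap4 at -1.87, Gimap5 at -0.81 and Gimap8 at -0.80 were lower and 0 were higher.

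**Figure D3:**
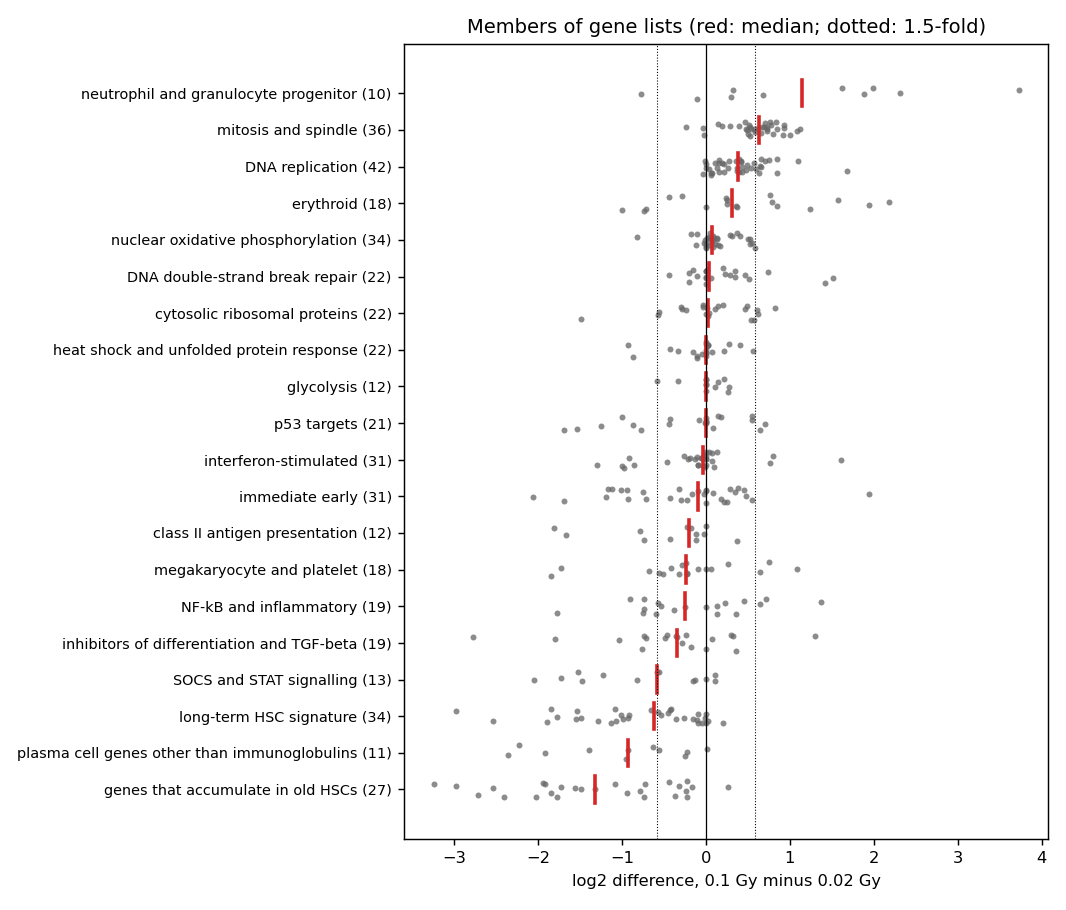
Each grey point is a kept gene of the list named at the left, with the number of kept genes in brackets, at its log2 difference of 0.1 Gy minus 0.02 Gy; red bars are list medians and dotted lines mark 1.5-fold. Medians run from -1.32 for genes that accumulate in old HSCs to 1.15 for neutrophil and granulocyte progenitor genes, and stay near 0 for the metabolic lists. The filter favoured granulocyte members high at 0.1 Gy, and over all 22 measured the median was 0.26.

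Lists of metabolism and protein handling had medians close to 0. In 5 of the 12 kept glycolysis genes and 6 of the 22 kept heat shock and unfolded protein response genes, both arrays held exactly the same deposited value. The share over all kept genes was 16.5%, and medians of 0.00 rest in part on such ties. At 1.5-fold, the shares over all kept genes were 5.9% higher and 8.15% lower. Nuclear oxidative phosphorylation genes had 0.08 over 34 genes, with 0 higher and 1, Ndufs3 at -0.82, lower at 1.5-fold. Glycolysis genes had 0.00 over 12 with 0 past 1.5-fold, and cholesterol and fatty acid synthesis genes had 0.10 over 20 with Fdps at 1.47 and Stard4 at 0.76 higher. Cytosolic ribosomal protein genes had 0.03 over 22, with 3 higher and Rpl6 at -1.49 lower. Heat shock and unfolded protein response genes had 0.00 over 22 with 2 lower, and NRF2 and antioxidant genes 0.01 over 22, with Gstm1 at 1.38 and Gsta4 at -0.96. MYC family and target genes had 0.12 over 21, with Mycn the single member past 1.5-fold. Cyclin-dependent kinase inhibitor and quiescence genes had -0.03 over 21 (0.01 under quantile normalization), with Btg2, Cdkn1c and Cdkn1a lower and 0 higher, and Foxo3 was equal on both arrays. Of 12 kept chemokine and receptor genes, Ccl4 at 0.71 was higher and Ccl19 at -0.63 lower. Of 7 endothelial and stromal genes, Timp3 was higher and Tek at -0.62 lower, and 11 of the 19 measured were under the filter level on all arrays. The T and NK cell list kept 6 of 18 measured genes with a median of -0.08, Nkg7 at 0.98 and Ctsw at -1.46 being past 1.5-fold, and the lymphoid progenitor list kept 4 of 11 with a median of 0.00, Notch1 alone being past 1.5-fold.

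**Figure D4:**
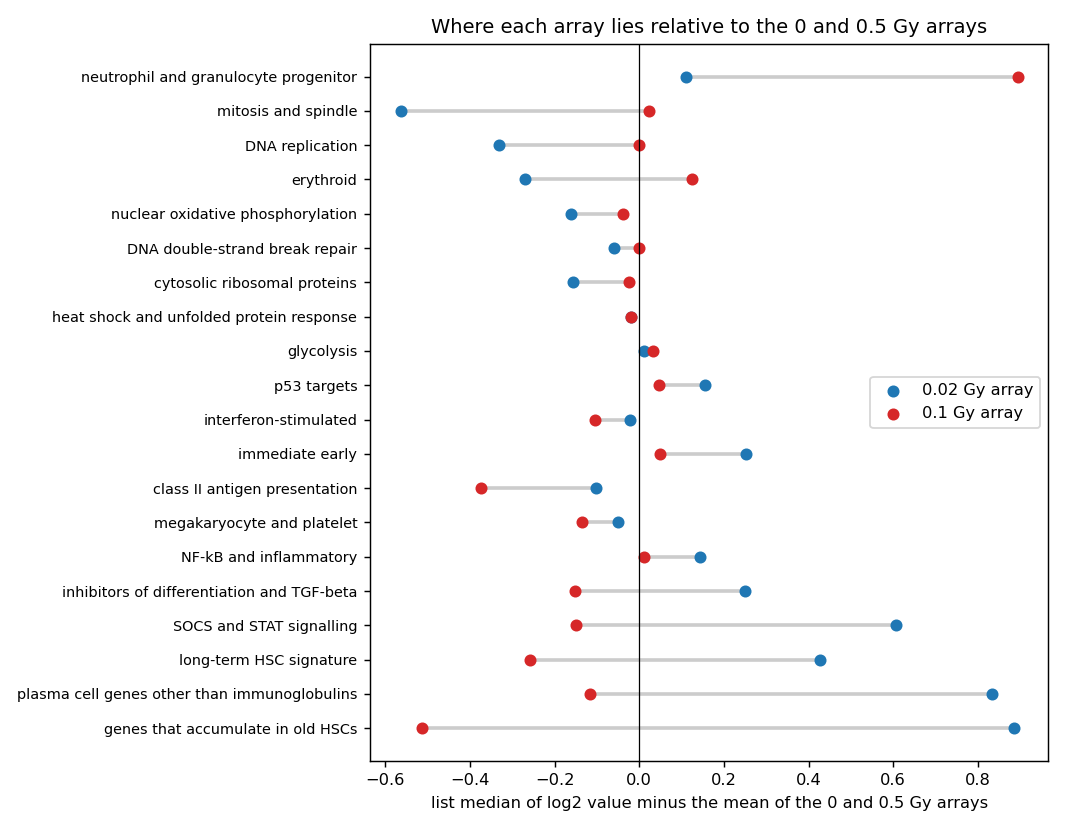
For each list, the median over kept genes of the log2 value minus the mean of the 0 and 0.5 Gy arrays is shown for the 0.02 Gy array (blue) and the 0.1 Gy array (red). The mitosis list has the blue point at -0.56 and the red at 0.02, whereas the old HSC list has them on opposite sides at 0.89 and -0.51. For the old HSC list the 0 and 0.5 Gy arrays themselves differ, with means of 7.72 and 6.92, so their mean is not a shared level. The granulocyte list has the points at 0.11 and 0.89, over kept genes, where the filter favoured members high at 0.1 Gy.

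Among microRNA genes, 100 were kept, of which 7 were higher at 0.1 Gy and 5 lower by at least 2-fold, beside 1.52% and 3.23% of kept genes. The signal may come from any transcript over the locus, and mature microRNAs were not measured as such. The genes given here were chosen after their values were seen, and in both clusters the pair of kept genes past 2-fold lay on the same side. Mir17 had 6.60, 5.68, 4.46 and 2.86 and its neighbour Mir18 6.66, 6.18, 4.21 and 3.44 at 0, 0.02, 0.1 and 0.5 Gy. In these 2 genes the values fell in that order over the 4 single arrays. Mir20a of the same cluster, which did not pass the filter, had 3.58, 4.23, 2.64 and 2.96, a difference of -1.59, and did not fall in that order. Mir19b-1 differed by -0.84 and Mir19a by -0.06, both at values under the filter level. Mir23a had 4.04, 4.97, 6.46 and 4.72 and its neighbour Mir27a 4.01, 4.78, 6.44 and 6.11, while Mir24-2, next to them, differed by -0.39 and did not pass the filter. Mir26a-2 had the widest gap, with 2.88, 3.12, 7.67 and 3.12. It was above the filter level at 0.1 Gy alone and passed the filter only through that array, so the size of its difference is uncertain. The main mature forms of these genes in RefSeq are given with the seed, bases 2 to 8, in capitals, to show which of them share target pairing.
miR-17-5p (Mir17, chr14:115043684-115043706, plus strand): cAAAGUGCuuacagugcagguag
miR-20a-5p (Mir20a, chr14:115044183-115044205, plus strand): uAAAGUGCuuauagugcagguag
miR-18a-5p (Mir18, chr14:115043867-115043889, plus strand): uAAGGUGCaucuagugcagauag
miR-23a-3p (Mir23a, chr8:84208563-84208583, plus strand): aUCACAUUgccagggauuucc
miR-27a-3p (Mir27a, chr8:84208727-84208747, plus strand): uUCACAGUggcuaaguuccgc
miR-26a-5p (Mir26a-2, chr10:126995543-126995564, plus strand): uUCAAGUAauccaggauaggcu
Coordinates are on GRCm38.p6. The miR-17-5p and miR-20a-5p forms share a seed, and the others each have their own.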

How the data were processed

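The authors deposited log2 intensities for probe sets that each stand for an Entrez gene; the base is inferred from their range of 1.22 to 13.0. The submitters' processing notes name Partek without a role or version, with background correction, normalization and build not given in the sources used here. Per the labels' protocols, total RNA was turned into biotinylated cDNA following the Affymetrix whole-transcript assay. Of 25206 probe sets, 23185 carried 1 gene symbol in the platform table, 2021 none and 0 several. All 23185 Entrez IDs matched the RefSeq table. Values were used as deposited. Samples were grouped by the dose label, 1 array each; arrays carry no read depth, and their number limits the precision.

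Differences, counts at 1.5-fold and 2-fold and list medians were computed in Python 3.11.15 with pandas 2.3.3, and the counting was tested on simulated data. Members and 34 gene lists were chosen with earlier results of these data known, so no list was tested. Of 757 listed symbols, 701 were measured; the rest were not analysed here. Named genes are the 15 highest and lowest differences, the 10 in each direction with both values at or above the filter level, up to 5 members per list and direction past 1.5-fold, and the sort markers. Immunoglobulin and T cell receptor segments, predicted or clone-named genes and pseudogenes, chemosensory receptors and small RNAs were left out of that ranking. Other list members, microRNAs and immunoglobulin genes named were chosen after their values were seen. Alternatives were quantile normalization and cyclic loess (limma 3.58.1 in R 4.3.3), median centring, other filters and thresholds, and leaving out immunoglobulin genes.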

Additional observations from a re-analysis of the deposited data

How the results depend on the processing

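The main counts were 176 genes higher and 375 lower at 2-fold, and 167 and 84 in which the 0.02 Gy and the 0.1 Gy array stood 2-fold apart from the other 3. At 1.5-fold these 4 counts were 684, 945, 503 and 384, and at 3-fold 54, 170, 82 and 24. A stricter filter that kept the 7729 genes of highest mean gave 91, 195, 76 and 44, and the cause of the change beyond the smaller number of genes was not tested. The count of genes in which the 0.02 Gy array stood apart was also 261 with no filter, 101 where both compared arrays were at or above the filter level and 98 without immunoglobulin genes. The other alternatives kept the 4 counts within 1.5 times. The lower genes made up 68.1% of those past 2-fold, and 59.7% under quantile normalization, 62.2% under median centring and 67.0% under cyclic loess.

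The median of the sort marker list turned from -0.17 to 0.26 with no filter and with a filter on the 0 and 0.5 Gy arrays alone, since Cd48 then entered the list. Quantile normalization moved the median of the immediate early list from -0.09 to 0.02. The granulocyte list's median of 1.15 was 0.26 with no filter, 0.68 with the filter on the 0 and 0.5 Gy arrays and 0.32 with both arrays at or above the level. Recomputed under the other normalizations, 415 differences of named genes moved by at most 0.1 and 8 by more, and none of the 141 genes changed sign under the 3 other normalizations. No paired analysis was possible because each dose has 1 array, and no array could be left out of a dose.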

Other observations

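Small RNA genes other than microRNAs, which are mainly nucleolar RNAs that guide the modification of ribosomal RNA, included members past 2-fold in both directions. Of 78 kept, with a median difference of 0.07, 15 were at least 2-fold higher and 6 lower, where 1.52% and 3.23% of kept genes were. Rnu3a, a U3 RNA gene of ribosomal RNA processing with several near-identical copies, had log2 intensities of 8.85, 7.96, 10.58 and 10.10 at 0, 0.02, 0.1 and 0.5 Gy. Snord42b had 2.60, 3.05, 6.19 and 6.89, so the 0.1 and 0.5 Gy arrays were high in both. Snord100 had 7.14, 7.22, 8.86 and 7.72 and Snord15b 4.58, 5.14, 7.11 and 5.21, with the 0.1 Gy array alone high. On the lower side, Snord87 had 6.51, 6.77, 4.35 and 5.97 and Snord49b 8.73, 8.62, 6.91 and 7.62. These examples were picked with their values known, and nothing was tested.

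Some single genes outside the lists also stood apart and were picked the same way. The fatty acid binding protein gene Fabp4 had 6.03, 4.04, 5.84 and 5.74 and the leukotriene synthesis gene Alox5 5.63, 4.18, 6.10 and 5.36, with only the 0.02 Gy array low. The tubulin gene Tuba1a had 8.96, 7.52, 9.40 and 10.16. The lymphotoxin gene Ltb had 8.80, 8.21, 5.82 and 7.98, with only the 0.1 Gy array low.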
